A study of Homo sapiens with 9 samples.

Results

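Peaks of 2 zinc finger proteins, zfp148 and zfp281, were described at 10 genes that encode the transcription factors of red blood cell development, namely GATA1, GATA2, ZFPM1, TAL1, LMO2, LDB1, KLF1, NFE2, GFI1B and BCL11A. A peak was taken as lying at a gene where it overlapped a window of the gene with 10 kb on either side, in hg19 coordinates, and the 10 windows together cover 523 kb. Neighbouring genes within the windows were not looked up, so a peak in a window need not belong to the named gene. Of 316415 peaks in the 9 deposited lists, 291 lay in these windows. The pooled bio-zfp148 list gave 54 of them, the pooled bio-zfp281 list 68 and the pooled BirA list 25.

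The peaks come from chromatin immunoprecipitation with sequencing (ChIP-seq) on streptavidin beads in K562 cells, a human leukaemia line. The cells had been kept for 48 h in hemin, an inducer of erythroid maturation that the labels give at 50 mM, stably expressed the bacterial biotin ligase BirA in every group, and were fixed with 1% formaldehyde for 10 min. The 3 groups were bio-zfp148 cells and bio-zfp281 cells, which also carried the named protein with a biotin acceptor tag of 23 amino acids at its N terminus, and BirA cells without a tagged protein, with 2 ChIP libraries in each group. Tagged clones were selected for a level near that of the endogenous protein, which the cells still had without a tag, and nothing in the labels says that the 2 libraries of a group came from separate cultures or clones.

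Zfp148 (ZBP-89) and zfp281 (ZBP-99) are related Krüppel-type zinc finger proteins that bind G-rich DNA. The genes examined here encode the proteins that drive erythroid transcription. GATA1 and its cofactor ZFPM1 (FOG1), the GATA1-TAL1-LMO2-LDB1 complex, KLF1 and NFE2 act on globin and other red cell genes, while GFI1B and BCL11A are zinc finger repressors, and BCL11A silences fetal globin.

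RefSeq promoters (GRCh38.p14) were matched by symbol for 8 of the 10 genes, with 15 start sites among them. In the 300 bases from 250 before to 50 after each start, GGGAGGGG, a G-rich run of the kind these proteins bind, was found on either strand in 6 of the 15 promoters, belonging to 5 genes (GATA1, GATA2, GFI1B, LDB1 and BCL11A). It was found in 14.6% of all 35116 RefSeq promoters of that length. The 15 are not independent, since 5 of them are of BCL11A and the BCL11A entries that held the run overlap each other. The longer GGGGGAGGG was found in 2 of the 15 (GATA2 and BCL11A), against 5.43% of all promoters. CCNCNCCC, the letters of a KLF1 site, was found in 11 of the 15 and in 56.2% of all promoters. Its letters also fit the reverse complement of GGGAGGGG, so the matches overlap. The E-box CANNTG, the type of site TAL1 binds, was found in 7 of the 15 and in 68.7% of all promoters. The site of GATA factors, written AGATAA, was found in 1 of the 15 and in 10.3% of all. An extended NFE2 site was found in 0 of the 15 and in 0.154% of all. Shown here are the 250 bases before the start of 3 genes that have the G-rich run and near whose 5′ end both proteins had pooled peaks, and of KLF1, near whose 5′ end all 4 libraries of tagged protein had peaks but whose promoter held neither G-rich run. The promoters of TAL1 and ZFPM1 held neither run as well, and all 4 libraries also had peaks near their 5′ ends. In each of these regions of KLF1, TAL1 and ZFPM1, a BirA library had an overlapping peak too. The regions are chrX:48786340-48786589 on the plus strand for GATA1, and chr10:102115003-102115252 for LDB1, chr2:60553655-60553904 for BCL11A (1 of its 5 entries, that with the most GGGAGGGG matches) and chr19:12887202-12887451 for KLF1, all on the minus strand. Capitals mark every match to the motifs named above other than the E-box.
GATA1: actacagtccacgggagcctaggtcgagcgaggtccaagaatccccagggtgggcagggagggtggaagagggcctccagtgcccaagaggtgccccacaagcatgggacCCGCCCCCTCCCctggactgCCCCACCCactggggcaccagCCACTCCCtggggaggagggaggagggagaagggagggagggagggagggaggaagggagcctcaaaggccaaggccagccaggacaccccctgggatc
LDB1: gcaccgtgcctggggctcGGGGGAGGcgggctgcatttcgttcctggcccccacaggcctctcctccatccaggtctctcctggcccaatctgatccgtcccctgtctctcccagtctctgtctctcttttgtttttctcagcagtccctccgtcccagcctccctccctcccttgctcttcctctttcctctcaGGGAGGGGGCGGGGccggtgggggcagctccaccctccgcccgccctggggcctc
BCL11A: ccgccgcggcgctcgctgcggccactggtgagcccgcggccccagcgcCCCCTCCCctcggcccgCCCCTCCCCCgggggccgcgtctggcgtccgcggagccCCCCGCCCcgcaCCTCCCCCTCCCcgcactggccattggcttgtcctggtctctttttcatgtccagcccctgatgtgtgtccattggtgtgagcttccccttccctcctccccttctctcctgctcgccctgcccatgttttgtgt
KLF1: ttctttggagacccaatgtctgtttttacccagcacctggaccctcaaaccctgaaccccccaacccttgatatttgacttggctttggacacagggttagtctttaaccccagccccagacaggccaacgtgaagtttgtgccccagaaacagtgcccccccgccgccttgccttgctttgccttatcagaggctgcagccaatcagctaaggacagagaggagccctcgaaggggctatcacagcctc
In the GATA1 promoter the run reads CCCCTCCC and lies from -136 to -129 counted from the start, and in that of LDB1 it reads GGGAGGGG from -55 to -48. The BCL11A promoter holds CCCCTCCC at 3 positions, the nearest from -131 to -124. The only motif match of the KLF1 promoter is CACCTG, an E-box, from -217 to -212. These promoters are in another genome build than the peaks, whose own sequence was not read, so a match says nothing of what lies under a peak.

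Library depth differed. The tags kept by the authors after duplicate removal numbered from 810565 (bio-zfp148 replicate 1) to 1570283 (bio-zfp281 replicate 1) in the 4 libraries of tagged protein, against 15956688 in BirA replicate 1 and 1080363 in BirA replicate 2. The smallest peak listed held 4 or 5 tags in the 5 shallow libraries and 12 in BirA replicate 1. Every peak of BirA replicate 1 and of the pooled BirA list had a false discovery rate (FDR), the authors' estimate in percent, of at least 31.6% and 38.6%, while that of BirA replicate 2 reached 0. Peak lists give no value where nothing was called and hold no expression levels by which to check the cell label. No difference in signal was tested, and 2 libraries against 2 cannot give a two-sided exact permutation p below 0.333.

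All 10 genes had pooled peaks of both proteins. Per Mb, the windows held 103 pooled bio-zfp148 peaks, 7.22 times the 14.3 per Mb of that list over the 3093 Mb spanned by the peaks of all lists. They held 130 pooled bio-zfp281 peaks per Mb, 5.89 times the 22.1 of its list, and 47.8 pooled BirA peaks, 2.62 times the 18.2 of its list. The same ratio of densities, windows over whole list, was taken in each library. Bio-zfp148 replicates 1 and 2 had ratios of 7.20 and 11.1, bio-zfp281 replicates 1 and 2 had 8.21 and 8.37, and BirA replicates 1 and 2 had 1.97 and 9.83. BirA replicate 2, with no tagged protein, lay within the range of the 4 libraries of tagged protein, and BirA replicate 1 lay below it. The ratio of BirA replicate 2 rests on 13 peaks at 5 of the 10 genes. GFI1B had 5 of these peaks, and GATA1, GATA2, TAL1, LDB1 and BCL11A had none. A high peak density was therefore measured at some of these genes in this library without a tagged protein. Its part in the bio-zfp148 and bio-zfp281 counts was not tested.

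**Figure D1:**
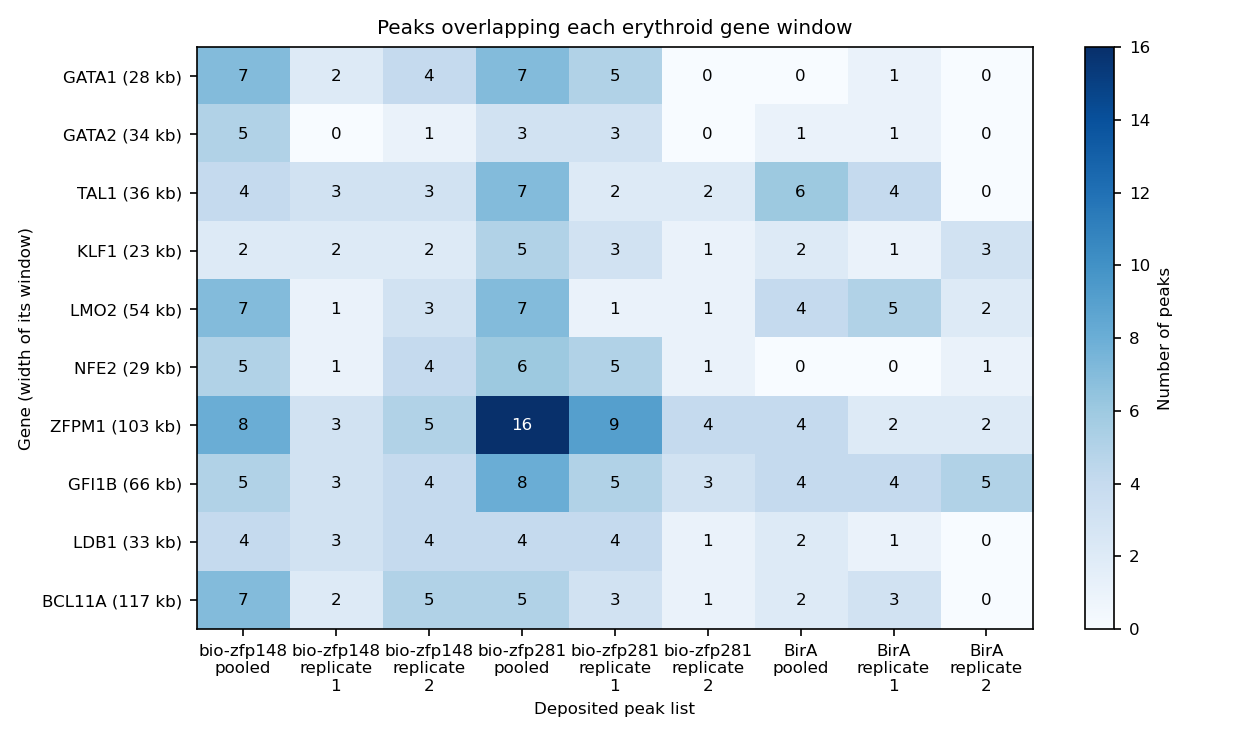
Number of peaks overlapping the window of each gene (rows, with the window's width in kb) in each of the 9 deposited lists (columns: pooled, replicate 1 and replicate 2 of bio-zfp148, bio-zfp281 and BirA). ZFPM1 had the most pooled bio-zfp281 peaks, 16 in 103 kb, and GATA1 had 7 pooled peaks of each tagged protein and 0 in the pooled BirA list.

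A peak was counted as a site where the pooled peak shared 1 bp or more with peaks of both replicates of its protein and touched no peak of the 3 BirA lists. Bio-zfp148 had 9 sites among its 54 pooled peaks at these genes (16.7%, exact 95% binomial interval 7.92 to 29.3%), against 11.1% of its whole list. Bio-zfp281 had 5 sites among 68 (7.35%, interval 2.43 to 16.3%), against 5.07% of its list. Both intervals hold the share of the whole list, so a higher share at these genes was not detectable with these counts. The intervals cover counting error only.

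Before BirA peaks were set aside, 18 of 54 bio-zfp148 peaks were called in both replicates (33.3%, interval 21.1 to 47.5%; 19.3% of the list), and 12 of 68 bio-zfp281 peaks were (17.6%, interval 9.47 to 28.8%; 10.3% of the list). The interval lies just above the list's share for bio-zfp148 and holds it for bio-zfp281. It treats peaks as independent, which peaks of 1 gene are not, and the 18 bio-zfp148 peaks lay at 8 genes. A higher share at these genes therefore does not follow from it. BirA peaks met 17 of the 54 (31.5%, interval 19.5 to 45.6%; 23.0% of the list) and 22 of the 68 (32.4%, interval 21.5 to 44.8%; 22.4% of the list). Among peaks called in both replicates, BirA peaks met 9 of the 18 bio-zfp148 peaks (50.0%; 42.7% over the list) and 7 of the 12 bio-zfp281 peaks (58.3%; 51.0% over the list). At the other end, 20 bio-zfp148 peaks (37.0%; 46.1% of the list) and 26 bio-zfp281 peaks (38.2%; 55.9% of the list) were called in the pooled list and in neither replicate. Up to 2 tags per position were kept in the pooled lists and 1 in the single libraries of tagged protein. The part of this difference in duplicate handling was not tested.

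The pooled peaks of both proteins merged into 83 places. Both proteins had a pooled peak at 35 places, bio-zfp148 alone at 18 and bio-zfp281 alone at 30. Of the bio-zfp148 peaks, 36 of 54 overlapped a bio-zfp281 peak (66.7%, interval 52.5 to 78.9%; 49.4% of the list), and of the bio-zfp281 peaks, 38 of 68 overlapped a bio-zfp148 peak (55.9%, interval 43.3 to 67.9%; 32.0% of the list). Both intervals lie above the share of the whole list, though peaks of 1 gene are not independent of each other. Where pooled peaks of both proteins overlapped, their summits lay a median of 54 bp apart over 39 pairs at these genes, against 61 bp over all such pairs. For the 11 pairs called in both replicates of both proteins the median was 26.0 bp, against 32.0 bp.

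Sites of either protein lay at 12 places of 7 genes, and GATA2, LMO2 and KLF1 had none. A site of both proteins lay at 2 places, 1 at GFI1B and 1 at LDB1. These make up 2 of 54 bio-zfp148 peaks (3.70%; 4.56% of the list) and 2 of 68 bio-zfp281 peaks (2.94%; 2.92% of the list), close to the share of each list. By position, 3 of the 9 bio-zfp148 sites lay upstream of their gene, 5 inside it and 1 downstream, and 2 of the 5 bio-zfp281 sites lay upstream and 3 inside.

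**Figure D2:**
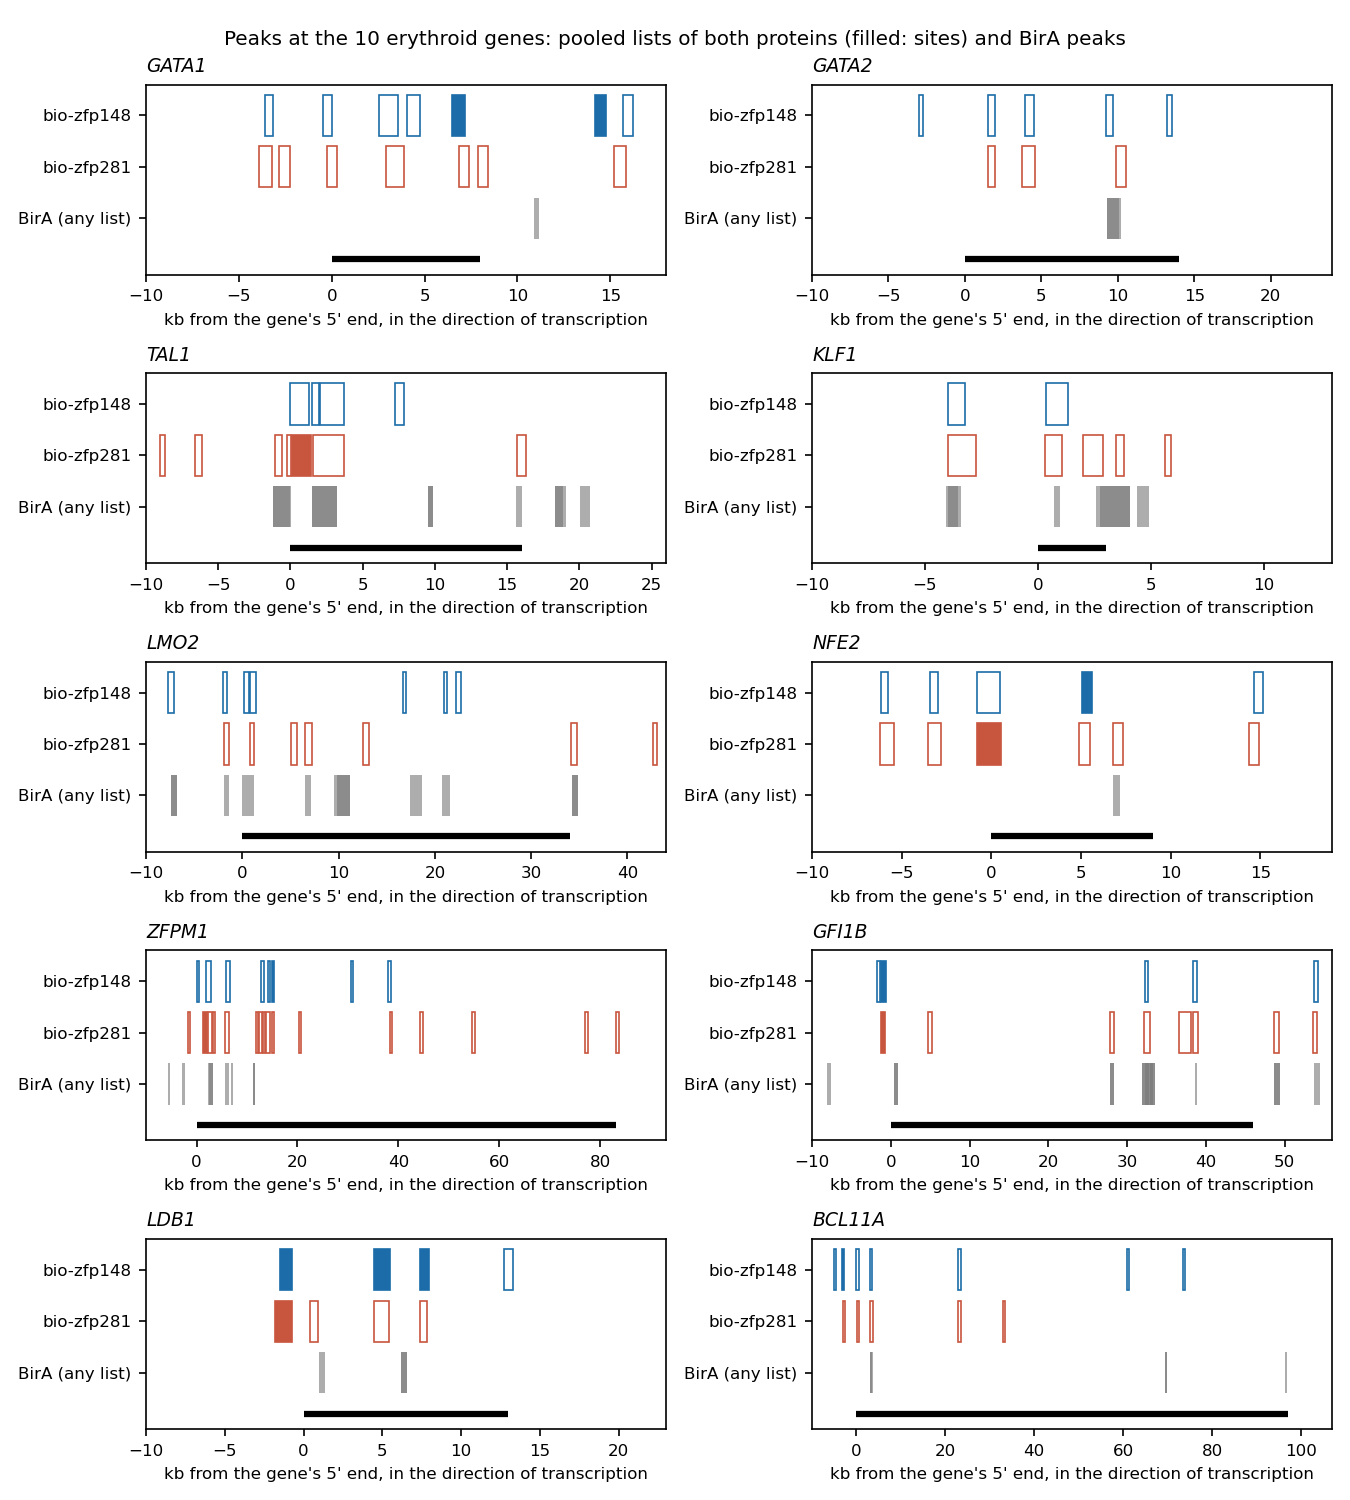
Maps of the 10 windows, with distance in kb from the gene's 5′ end in the direction of transcription on the horizontal axis and the gene as a black bar. Boxes are pooled bio-zfp148 peaks, pooled bio-zfp281 peaks and, in grey, peaks of any BirA list, and filled coloured boxes are sites. LDB1 has 3 filled bio-zfp148 boxes and 1 filled bio-zfp281 box, and no grey box meets a coloured one at GATA1 or LDB1.

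GATA1, the zinc finger factor that gives erythroid cells their identity, had 7 pooled bio-zfp148 and 7 pooled bio-zfp281 peaks, at 9 places. No BirA peak met any of them, and the only BirA peak in its 28 kb window was a peak of 12 tags at +11 kb in replicate 1. Positions here are in kb from the gene's 5′ end, rounded to 1 kb, with negative values upstream. Other start sites of a gene were not used, so a peak inside a gene can lie near one of them.

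Both sites in the GATA1 window were of bio-zfp148, at +7 kb inside the gene and at +15 kb downstream of it. The site at +7 kb (chrX:48651488-48652164) held 34 pooled tags at 47.9-fold over the local background, which is the authors' fold enrichment. It held 8 and 12 tags in bio-zfp148 replicates 1 and 2, while bio-zfp281 had a peak of 5 tags there in replicate 1 and none in replicate 2. The site at +15 kb (chrX:48659153-48659776) held 18 pooled tags at 29.6-fold, with 4 and 5 tags in bio-zfp148 replicates 1 and 2 and no bio-zfp281 peak in either replicate. Replicate 2 of bio-zfp281 had no peak anywhere in the GATA1 window, so no bio-zfp281 site could be counted there. Its strongest bio-zfp281 peak, at +8 kb (chrX:48652894-48653392), had 16 pooled tags at 15.5-fold and 7 tags in replicate 1. At the 5′ end, near the promoter printed above, bio-zfp148 had 7 pooled tags at 7.09-fold and no peak in either replicate, and bio-zfp281 had 14 pooled tags at 7.40-fold with 5 tags in replicate 1.

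GATA2, which maintains blood stem and progenitor cells and is shut off by GATA1 as red cells mature, had 5 pooled bio-zfp148 peaks and 3 pooled bio-zfp281 peaks at 6 places. Bio-zfp148 had no peak at GATA2 in replicate 1 and 1 in replicate 2, and bio-zfp281 had 3 in replicate 1 and 0 in replicate 2. GATA2 had the fewest peaks of the 10 genes in the 4 libraries of tagged protein and no peak called in both replicates of a protein. Its strongest bio-zfp148 peak, at -3 kb (chr3:128214776-128215002), had 8 pooled tags at 31.4-fold and no peak in a single library. Its strongest bio-zfp281 peak, at +4 kb (chr3:128207400-128208253), had 13 pooled tags at 23.9-fold with 9 tags in replicate 1, and bio-zfp148 replicate 2 had 6 tags there. Of the 2 GATA2 promoter entries, 1 held both G-rich runs (chr3:128488481-128488780 in GRCh38) and the other held neither (chr3:128493152-128493451). The gene is on the minus strand, so the entry with the runs lies further along it. The position of +4 kb counts from the outer 5′ end and does not give the distance to that second start. At GATA2, 2 of the 6 places met BirA peaks, the strongest of which held 39 tags at +10 kb in the pooled list.

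ZFPM1, the cofactor through which GATA1 both activates and represses, had 8 pooled bio-zfp148 and 16 pooled bio-zfp281 peaks at 16 places, in a window of 103 kb. Its site at +15 kb (chr16:88534878-88535296) was of bio-zfp148, with 27 pooled tags at 61.2-fold and 4 and 11 tags in replicates 1 and 2. Bio-zfp281 had 17 pooled tags at 36.0-fold there, with 9 in replicate 1 and none called in replicate 2. The site at +2 kb (chr16:88521319-88522017) was of bio-zfp281, with 28 pooled tags at 29.0-fold and 8 and 9 tags in replicates 1 and 2, and bio-zfp148 had 6 tags there in replicate 2. Both sites thus also had a peak of the other protein in 1 of its replicates.

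The peak with the most tags of all 10 genes was also at ZFPM1, at +6 kb. Bio-zfp148 held 298 pooled tags there at 80.2-fold (chr16:88525752-88526629), and bio-zfp281 held 254 at 42.9-fold. As a rate, in tags per 1000000 tags kept, bio-zfp148 replicates 1 and 2 held 98.7 and 87.5 there, bio-zfp281 replicates 1 and 2 held 72.0 and 59.5, and BirA replicate 2 held 26.8. With the replicates of a protein joined, bio-zfp148 had 1.36 times the rate of bio-zfp281 (exact 95% interval from the tag counts 1.10 to 1.67). Bio-zfp148 was 3.41 times (2.30 to 5.21) and bio-zfp281 2.51 times (1.69 to 3.87) the rate of BirA replicate 2. The place was chosen for having peaks in all 4 libraries of tagged protein, so these ratios do not test enrichment over the control. Divided also by the width of the peaks, in tags per 1000000 tags kept per kb, bio-zfp148 had 151 and 101, bio-zfp281 had 99.9 and 102, and BirA replicate 2 had 38.8, so the proteins overlapped on that scale.

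At ZFPM1 +3 kb, where the strongest bio-zfp281 peak of the 10 genes lay (chr16:88522196-88523061, 36 pooled tags, 44.9-fold), bio-zfp148 replicates 1 and 2 held 5 and 8 tags and bio-zfp281 replicates 1 and 2 held 15 and 6. The place joined by overlap takes in the bio-zfp281 site at +2 kb as well. Over that joined place bio-zfp148 had rates of 6.17 and 9.35, bio-zfp281 had 14.6 and 16.5, and BirA replicate 1 had 2.01, with a ratio of bio-zfp148 to bio-zfp281 of 0.537 (0.292 to 0.954). Per kb of peak, bio-zfp148 had 14.7 and 9.91 and bio-zfp281 had 9.50 and 17.7, so the libraries of the proteins overlapped.

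TAL1, the basic helix-loop-helix protein that binds E-boxes, had 4 pooled bio-zfp148 and 7 pooled bio-zfp281 peaks at 7 places, 4 of which met BirA peaks. At +1 kb (chr1:47696594-47697924) lay a bio-zfp281 site with 103 pooled tags, the most of any site, at 27.8-fold and with 44 and 17 tags in replicates 1 and 2. Bio-zfp148 had 8 and 22 tags there in replicates 1 and 2, and 49 pooled tags at 20.4-fold. That bio-zfp148 peak ends at chr1:47698046, beyond the end of the bio-zfp281 peak, and there it met a BirA peak, so it was not counted as a site. Over the joined place, bio-zfp148 had rates of 18.5 and 14.7, bio-zfp281 had 28.0 and 18.7, and BirA replicate 1, whose peak overlapped only the upstream edge of the place, had 2.69. Both bio-zfp148 libraries were below both bio-zfp281 libraries, with a ratio of the joined rates of 0.651 (0.421 to 0.995).

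At +3 kb, TAL1 had the second largest count, with 161 pooled bio-zfp148 tags at 50.5-fold (chr1:47694294-47695964) and 177 pooled bio-zfp281 tags at 22.8-fold. Bio-zfp148 replicates 1 and 2 had rates of 37.0 and 40.1, bio-zfp281 had 40.8 and 28.7, and BirA replicate 1 had 5.20. The replicates of both proteins overlapped, and their joined rates had a ratio of 1.07 (interval 0.792 to 1.45). Bio-zfp148 was 7.50 times (5.50 to 10.2) and bio-zfp281 6.98 times (5.13 to 9.53) the rate of BirA replicate 1. That deeper library lists peaks down to a lower rate, so these ratios do not measure enrichment over the control. BirA replicate 2 had no peak in the TAL1 window, and the only promoter match to AGATAA among the 8 genes was at TAL1.

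LMO2, the LIM-only bridge between TAL1 and GATA1, had 7 pooled peaks of each protein, at 12 places, and 7 of these places met BirA peaks. That was the highest count of the 10 genes but not the highest share, since BirA peaks met 4 of 5 places at KLF1. In the single libraries it had 1 and 3 bio-zfp148 peaks and 1 and 1 bio-zfp281 peaks in replicates 1 and 2, and 5 and 2 BirA peaks. BirA replicate 1, the deepest library, thus listed more peaks at LMO2 than any library of tagged protein. Its strongest peaks of both proteins lay at -2 kb, with 18 pooled bio-zfp148 tags at 16.4-fold (chr11:33915627-33916002) and 21 pooled bio-zfp281 tags at 9.33-fold. Bio-zfp148 replicate 2 held 10 tags there, bio-zfp281 replicate 1 held 11 and BirA replicate 2 held 7.

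LDB1, the adaptor that lets the complex join distant enhancers to promoters, had the most sites. It had 4 pooled peaks of each protein at 5 places, none met by a BirA peak, with 3 bio-zfp148 sites and 1 bio-zfp281 site. The site of both proteins lay at -1 kb. Bio-zfp148 had 36 pooled tags at 48.4-fold there (chr10:103880758-103881519) with 11 and 12 tags in replicates 1 and 2, and bio-zfp281 had 71 at 24.2-fold (chr10:103880760-103881836) with 23 and 14. The rates were 13.6 and 8.01 for bio-zfp148, against 14.6 and 15.4 for bio-zfp281. The ratio of the joined rates was 0.667 (interval 0.378 to 1.15), which includes 1.

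The other LDB1 sites were of bio-zfp148, at +8 kb (chr10:103872033-103872643, 40 pooled tags, 65.5-fold) and at +5 kb (chr10:103874494-103875520, 54 pooled tags, 25.3-fold). The first held 4 and 16 tags in bio-zfp148 replicates 1 and 2, and the second held 9 and 24. Bio-zfp281 had peaks at both in replicate 1, of 16 and 13 tags, and none in replicate 2. A BirA replicate 1 peak of 16 tags (chr10:103873413-103873805) lay between these sites and touched neither.

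KLF1, the zinc finger activator of adult globin, had 2 pooled bio-zfp148 and 5 pooled bio-zfp281 peaks at 5 places, 4 of which met BirA peaks. Its strongest peaks lay at +1 kb, with 69 pooled bio-zfp148 tags at 34.3-fold (chr19:12996696-12997641) and 29 pooled bio-zfp281 tags at 6.43-fold. Bio-zfp148 had rates of 17.3 and 16.7 there, bio-zfp281 had 7.64 and 5.51, and BirA replicate 2 had 5.55. Both bio-zfp148 libraries were above both bio-zfp281 libraries, and the joined rates had a ratio of 2.46 (interval 1.36 to 4.64). Against BirA replicate 2, bio-zfp148 was 3.04 times as high (1.28 to 8.79) and bio-zfp281 1.24 times (0.465 to 3.83). As at ZFPM1 +6 kb, the place was chosen for its tagged peaks, so these ratios do not test enrichment over the control. These ratios depend on peak width, which was 266 bp in BirA replicate 2 and 441 to 754 bp in the tagged libraries. Per kb of peak, bio-zfp148 had 27.4 and 25.3, bio-zfp281 had 10.1 and 12.5, and BirA replicate 2 had 20.9, which is above both bio-zfp281 libraries. The strongest BirA replicate 2 peak of KLF1 lay at this place, with 6 tags at 3.94-fold.

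NFE2, the leucine zipper subunit that joins small MAF proteins at globin control regions, had 5 pooled bio-zfp148 and 6 pooled bio-zfp281 peaks at 6 places. The only BirA peak in its window held 5 tags in replicate 2, at +7 kb, where it met a bio-zfp281 peak of 15 pooled tags. Its bio-zfp148 site lay at +5 kb (chr12:54689382-54689927), with 32 pooled tags at 15.4-fold and 6 and 13 tags in replicates 1 and 2, beside 12 tags in bio-zfp281 replicate 1. Its bio-zfp281 site lay at the 5′ end (chr12:54694473-54695819), with 41 pooled tags at 11.1-fold and 16 and 6 tags in replicates 1 and 2. Bio-zfp148 had 43 pooled tags at 6.32-fold there and 22 in replicate 2, and no peak in replicate 1. The fold enrichments of these NFE2 sites were the lowest among the sites of their protein at the 10 genes.

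GFI1B, a repressor needed for red cell and platelet formation, had 5 pooled bio-zfp148 and 8 pooled bio-zfp281 peaks at 9 places, 5 of which met BirA peaks. The site of both proteins lay at -1 kb, with 29 pooled bio-zfp148 tags at 41.4-fold (chr9:135819753-135820433) and 26 pooled bio-zfp281 tags at 28.1-fold (chr9:135819736-135820272). It held 6 and 15 tags in bio-zfp148 replicates 1 and 2 and 14 and 5 in bio-zfp281. The pooled summits lay at chr9:135820086 for bio-zfp148 and chr9:135820091 for bio-zfp281.

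GFI1B had 2 promoter entries, at chr9:132945281-132945580 and, further along the gene, chr9:132978444-132978743 in GRCh38. Only the second held GGGAGGGG. Positions here count from the outer 5′ end, so they do not give the distance to that second start. At +39 kb, bio-zfp148 held 99 pooled tags at 91.7-fold (chr9:135859302-135859889) and bio-zfp281 40 at 16.9-fold. Bio-zfp148 had rates of 28.4 and 20.0 there, bio-zfp281 had 12.1 and 5.51, and BirA replicate 2 had 4.63. Bio-zfp148 exceeded bio-zfp281 in both libraries, by 2.37 times over the joined rates (interval 1.44 to 4.01). Bio-zfp148 was 4.96 times (2.00 to 15.9) and bio-zfp281 2.09 times (0.783 to 7.02) the rate of BirA replicate 2. At +32 kb, in contrast, both proteins were near the control, with rates of 6.17 and 4.01 for bio-zfp148 and 3.18 and 5.51 for bio-zfp281, against 3.51 and 5.55 for BirA replicates 1 and 2. The joined rates over BirA replicate 2 were 0.858 (0.291 to 2.83) for bio-zfp148 and 0.727 (0.239 to 2.43) for bio-zfp281. Both of these GFI1B places were chosen for their tagged peaks, so the ratios over BirA do not test enrichment over the control.

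BCL11A, the repressor of fetal globin, had 7 pooled bio-zfp148 and 5 pooled bio-zfp281 peaks at 8 places in a window of 117 kb. Its site lay at -3 kb (chr2:60783724-60784246) and was of bio-zfp148, with 30 pooled tags at 63.8-fold and 5 and 13 tags in replicates 1 and 2. Bio-zfp281 had 10 pooled tags at 9.33-fold there and no peak in a single library. At +3 kb lay the bio-zfp148 peak with the highest fold enrichment of the 10 genes, 134-fold with 38 pooled tags (chr2:60777408-60777891), at the 99.7th percentile of its list. Bio-zfp281 had 41 pooled tags at 44.0-fold there.

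The BCL11A peaks at +3 kb met peaks of BirA replicate 1 and of the pooled BirA list, so they were not sites. Bio-zfp148 had rates of 9.87 and 10.0, bio-zfp281 had 10.2 and 9.92, and BirA replicate 1 had 0.940. All 4 libraries of tagged protein lay within a narrow range, and bio-zfp148 was 10.6 times (5.30 to 21.8) and bio-zfp281 10.7 times (5.44 to 21.9) the rate of BirA replicate 1. As at TAL1, that library lists peaks down to a lower rate, so these ratios do not measure enrichment over the control. The BirA replicate 1 peak there held 15 tags at an FDR of 61.9%.

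**Figure D3:**
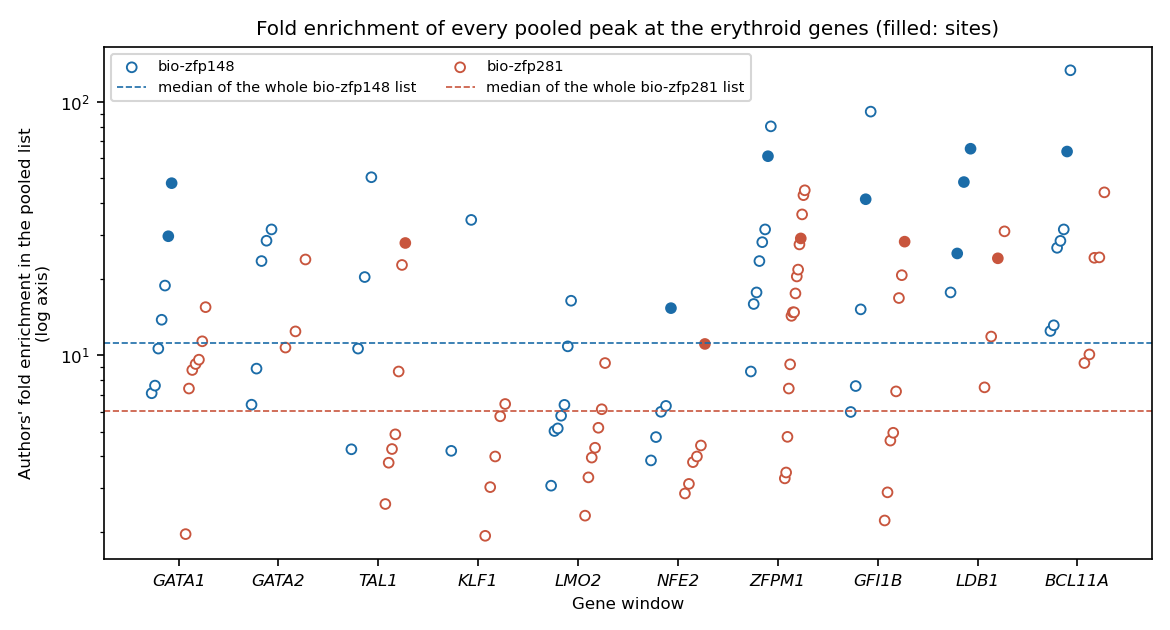
The authors' fold enrichment (log axis) of every pooled peak at each gene, for bio-zfp148 and bio-zfp281. Filled points are sites and dashed lines are the medians of the whole lists, 11.2 for bio-zfp148 and 6.04 for bio-zfp281. The points of highest fold at BCL11A, GFI1B, ZFPM1 and TAL1 in bio-zfp148 are open, since a BirA peak met each of them.

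Over all 10 genes, the fold enrichment of the 9 bio-zfp148 sites ran from 15.4 to 65.5, with a median of 47.9, against a median of 23.6 over the 4885 bio-zfp148 sites of the whole list. Their tags ran from 18 to 54, with a median of 32.0 against 28.0. The 5 bio-zfp281 sites had fold enrichments of 11.1 to 29.0, with a median of 27.8, against 15.2 over 3462 sites, and tags of 26 to 103, with a median of 41.0 against 35.0. Over all pooled peaks at these genes the median fold enrichment was 16.2 for bio-zfp148 (11.2 over its list) and 8.99 for bio-zfp281 (6.04 over its list). BirA pooled peaks at the genes had a median of 7.69, against 8.10 over their list. Fold enrichment is the authors' own value within each list, and its size is not comparable between lists.

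The 10 places with peaks in all 4 libraries of tagged protein lay at 6 genes, and 8 of them met BirA peaks, 5 with replicate 1 and 4 with replicate 2. The 2 that did not were the GFI1B and LDB1 sites of both proteins. Of the 83 places, 30 had no peak in a single library, 29 had a peak in 1, 7 in 2, 7 in 3 and 10 in all 4. The rates given here sum the tags of the peaks called at a place over the tags kept in that library, so they cover peaks of unequal width and only what was called, and up to 2 tags per position were kept in BirA replicate 1 against 1 in the others. Bio-zfp148 and bio-zfp281 were compared at all 10 of these places, and the intervals cover counting error only and are not adjusted for that number. These places were chosen after their values were seen, for having peaks in all tagged libraries, so their ratios over BirA are a description and no comparison with the control rests on them. The smallest listed rate was also higher in the tagged libraries than in BirA replicate 1, which can raise a ratio over its peaks by construction. The interval of bio-zfp148 over bio-zfp281 lay above 1 at KLF1 +1 kb, ZFPM1 +6 kb and GFI1B +39 kb, and under 1 at TAL1 +1 kb and, with the +2 kb site included, ZFPM1 +3 kb. Per kb of peak, the libraries of the proteins did not overlap at KLF1 +1 kb, GFI1B +39 kb (47.5 and 34.1 for bio-zfp148, against 26.1 and 14.6 for bio-zfp281) and TAL1 +1 kb (13.9 and 12.3 for bio-zfp148, against 23.7 and 17.1 for bio-zfp281), and overlapped at both ZFPM1 places. They did not overlap either at GFI1B +32 kb (13.9 and 11.8 for bio-zfp148, against 6.46 and 9.30 for bio-zfp281), where BirA replicate 2 had 12.1. The interval of bio-zfp148 over bio-zfp281 held 1 at the other 5 places, among them GFI1B +32 kb (1.18, 0.455 to 3.10), GFI1B -1 kb (1.19, 0.607 to 2.33) and BCL11A +3 kb (0.987, 0.536 to 1.81).

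**Figure D4:**
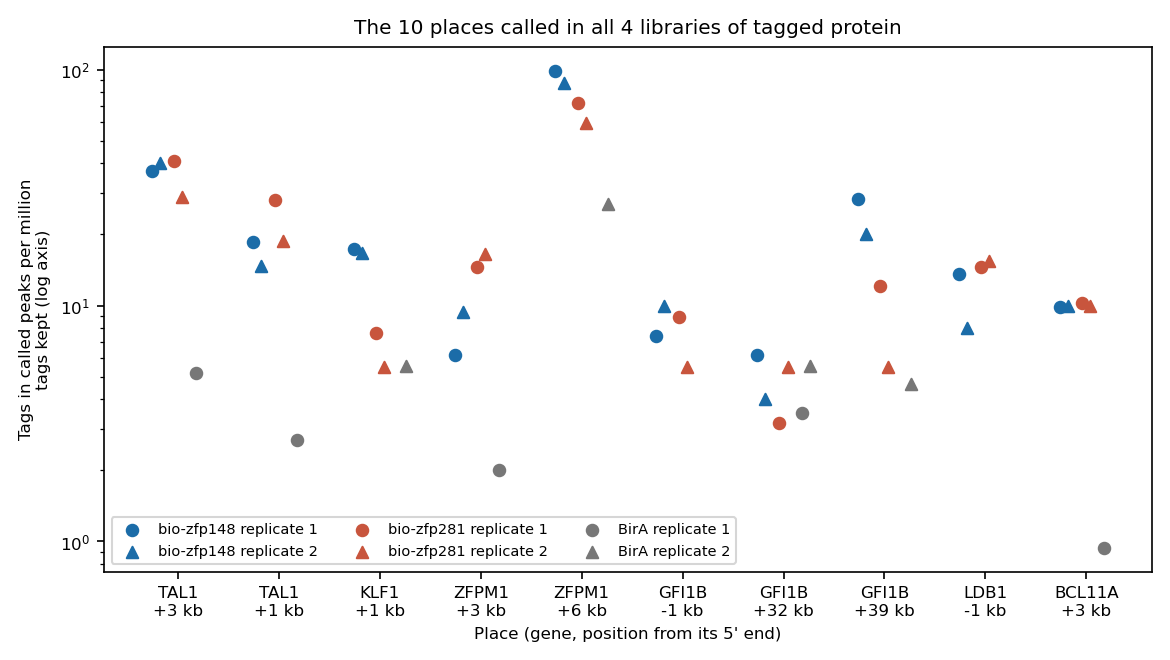
Tags in called peaks per 1000000 tags kept (log axis) at the 10 places called in all 4 libraries of tagged protein, by library, with circles for replicate 1 and triangles for replicate 2. Places without a grey point had no BirA peak in a single library. At ZFPM1 +6 kb the 4 libraries of tagged protein lie between 59.5 and 98.7 and BirA replicate 2 at 26.8, and at GFI1B +32 kb the 3 groups overlap.

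The window's edge set which peaks were counted. The bio-zfp281 peak nearest inside an edge was at TAL1 (8 pooled tags, 4.27-fold, summit 1143 bp inside). Outside, the strongest of the nearest was near NFE2 (chr12:54674640-54675480), with 37 pooled tags at 14.2-fold and its summit 999 bp beyond the edge. The bio-zfp148 peak nearest inside was at GFI1B (12 pooled tags, 7.57-fold, 2143 bp), and the nearest outside was near NFE2 (17 pooled tags, 3.55-fold, 910 bp).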

How the data were processed

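The submitters' processing notes name Bowtie 1.0.0, hg19 and MACS 1.4, and per the file headers peaks come from MACS 1.4.0rc2 with a p cutoff of 1e-05 and a local background over 1000 and 10000 bp. The authors called peaks on each of 6 ChIP libraries and on both replicates of a group joined, against input. Each deposited list gives a tag count per peak without normalisation, a p scale (−log10 p multiplied by 10, used here as a score), a fold enrichment as a ratio, and an FDR in percent, all computed by the authors. The genes, windows, motifs and site rule were chosen with earlier results of these data known. All 10 genes were named, each with its strongest peak of each protein, every place with a site, and the places called in all 4 libraries, which were added after their values were seen. A gene's 5′ end was taken from its window, and strands of LMO2 and NFE2 from general knowledge. Rates divide tags by tags kept, with exact 95% intervals. Overlap counting was tested on simulated data. Exon and intron positions were not analysed here, nor were other erythroid genes. Python 3.11.15, numpy 2.4.6, pandas 2.3.3, scipy 1.17.1 and matplotlib 3.10.9 were used.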

Additional observations from a re-analysis of the deposited data

How the results depend on the processing

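The counts of sites depended on the rules. Sites of bio-zfp148, of bio-zfp281 and of both (9, 5 and 2 as reported) kept their count to within 1.5 times under 11, 8 and 6 of 17 alternatives. With a fold enrichment of at least 10 in every list they numbered 5, 0 and 0. With no BirA peak removed they numbered 18, 12 and 10, with only BirA peaks found in both BirA replicates removed 17, 11 and 9, and with no replicate support 37, 46 and 23. The genes without flanks gave 5, 3 and 0. An FDR of at most 5%, which leaves BirA peaks in replicate 2 only, gave 8 bio-zfp281 sites and 6 of both. A minimum of 100 on the p scale gave 4 of both.

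Leaving out a replicate in turn gave 9 to 20 bio-zfp148 sites, the highest without bio-zfp148 replicate 1. It gave 5 to 28 bio-zfp281 sites and 2 to 7 of both, the highest without bio-zfp281 replicate 2. Without bio-zfp148 replicate 1 there were 4 of both. Without BirA replicate 1 there were 8 bio-zfp281 sites and 6 of both, and without BirA replicate 2 there were 8 and 5, in both cases also without the pooled BirA list. Fewer conditions on a site admit more peaks by construction.

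The share of pooled peaks met by BirA, 31.5% for bio-zfp148 and 32.4% for bio-zfp281, was 14.8 to 50.0% and 11.8 to 57.1% with a replicate left out. It was 14.8% and 11.8% without BirA replicate 1 and 18.5% and 20.6% without BirA replicate 2, and the highest values came without bio-zfp148 replicate 2 and without bio-zfp281 replicate 1. Raising the p scale minimum to 100 gave 19.5% and 16.4%. The shares were 5.56% and 6.90% at a fold of at least 10, 16.0% and 9.84% at an FDR of at most 5%, and 1.85% and 1.47% with only BirA peaks found in both BirA replicates. These settings cut the BirA lists as well, which by construction leaves fewer BirA peaks that a pooled peak can meet. Any other cause was not tested. With the replicate block, that is with equal replicate numbers matched, the share was 21.8% for bio-zfp148 and 18.5% for bio-zfp281, with 10 and 5 sites and 3 of both. Depth limits these counts, since the smallest peak listed held 4 or 5 tags in the shallow libraries and peak lists hold no value elsewhere.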
